A study of Arabidopsis thaliana with 9 samples.

Results

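The 41 genes described here encode cysteine-rich receptor-like kinases (CRKs) of Arabidopsis thaliana, CRK1 to CRK34 and CRK36 to CRK42. They were chosen by their locus identifiers out of 33610 genes listed in the count files, by a rule that uses no expression value. A CRK crosses the plasma membrane once. Its outer part carries DUF26 domains, each held together by conserved cysteines, and its inner part is a protein kinase. CRKs are known in leaves for their ties to immune receptor complexes, to reactive oxygen released outside the cell, to salicylic acid and to cell death, and many lie in tandem arrays that grew by gene duplication.

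Messenger RNA was sequenced from rosette leaves of the ecotype Col-0 in 3 groups of 3 libraries. Alternaria leaves had been sprayed with spores of Alternaria brassicicola strain MUCL 20297, a fungus that feeds on killed tissue, at 1000000 spores per ml with 0.01% Silwet L-77 and were taken 3 days later. Mock leaves are labelled mock treated and untreated leaves untreated, and for these the labels give neither the sprayed liquid nor a harvest time. All plants were 5 to 6 weeks old, on soil at 22 °C in humid short days with 8 h of light. The labels call the 3 libraries of a group biological replicates without saying whether each came from separate plants, so the p-values measure the spread between these libraries. In bulk leaf RNA, fewer cells of a type and less RNA per cell cannot be told apart.

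Libraries held 22713147 to 36061529 reads in genes, and 22019 genes passed a filter on low counts and were tested. Of the 41 CRK genes 40 were tested, and 39 passed that filter's level of 0.347 counts per 1000000 reads (CPM) in at least 3 of the untreated and mock libraries. Values below are normalised CPM in replicates 1, 2 and 3 of a group, and changes are log2 ratios ± SE with p-values adjusted over all 22019 genes. The proteins predicted by the TAIR10.1 reference annotation were checked against the family's name. Of 41, 39 held at least 2 of the DUF26 patterns in which 3 cysteines are spaced by 8 and by 2 residues, and CRK24 and CRK27 held 1. The kinase signature DFG was found in 38 of 41 and was missing from the annotated proteins of CRK1, CRK8 and CRK9. CRK9, at 265 residues, was the shortest of them.

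Most CRK genes had more mRNA in Alternaria leaves than in mock leaves. Of 40 tested, 33 rose and 4 fell, and the comparison called 55.6% of all tested genes, 29.5% higher and 26.1% lower. At least 2-fold rises were called for 25 members, against 11.7% of all tested genes, and at least 4-fold rises for 17 members, against 4.95%. At least 2-fold falls were called for 2 members, against 5.36% of all tested genes. The median log2 change was 1.68 over the 40 members and -0.02 over all genes tested. The 41 genes together made up 2350 ± 176 CPM in Alternaria leaves, 812 ± 20.1 CPM in mock leaves and 693 ± 116 CPM in untreated leaves (mean ± SD, n = 3 each), a 2.89-fold higher sum in Alternaria than in mock leaves. Upper-quartile scaling moved the median of all genes to -0.20 and the calls over all genes to 4937 higher and 8114 lower, against 6489 and 5752 in the fit reported here, with 33 CRK genes higher and 5 lower.

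**Figure D1:**
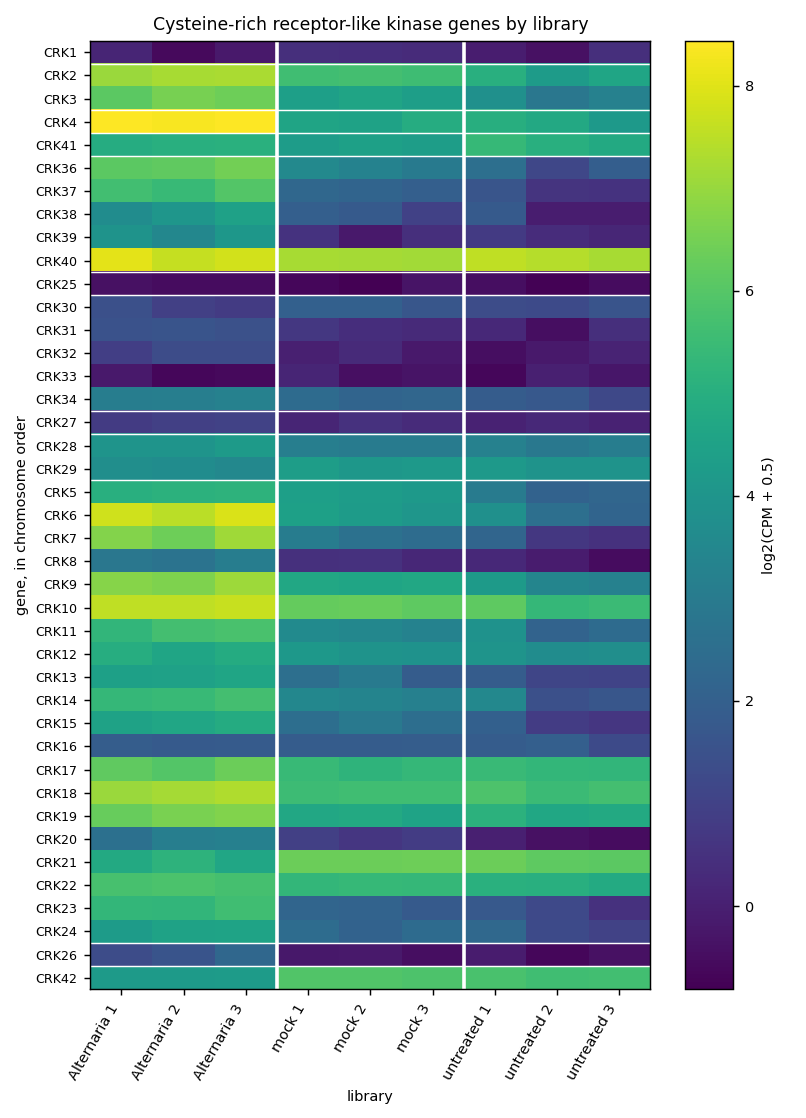
Level of each of the 41 CRK genes (rows, in chromosome order, thin white lines between tandem blocks and genes that stand alone) in each of the 9 libraries (columns, Alternaria, mock, untreated), as log2(CPM + 0.5) by colour. The 33 members that rose are brighter in all 3 Alternaria columns than in the mock columns, and CRK21, CRK42, CRK29 and CRK30 are darker there.

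Of the 13 members listed for a described role in immunity or stress, 12 rose in Alternaria leaves over mock leaves, and CRK29 fell. In that comparison 82.5% of the tested members of the family rose, and 29.5% of all tested genes did. Whether the listed members differ from the rest of the family was not tested. CRK4 (AT3G45860), whose overexpression is known to cause cell death, had 343, 323 and 346 CPM in Alternaria leaves, against 23.6, 22.4 and 29.3 CPM in mock leaves and 31.6, 27.1 and 18 CPM in untreated leaves. All 3 Alternaria libraries stood above every other library, and mock and untreated libraries overlapped (Alternaria against mock, log2 change 3.75 ± 0.17, edgeR adjusted p = 9.3e-09, 13.4-fold). CRK6 and CRK7, which are known to protect leaves against oxidative damage that starts outside the cell, are neighbours on chromosome 4. CRK6 (AT4G23140) had 217, 178 and 243 CPM in Alternaria leaves, against 21.1, 18.5 and 16 CPM in mock leaves and 13.6, 5.37 and 3.97 CPM in untreated leaves (log2 change 3.52 ± 0.30, edgeR adjusted p = 7.5e-07). CRK7 (AT4G23150) had 104, 83.8 and 139 CPM in Alternaria leaves, against 7.87, 5.74 and 4.99 CPM in mock leaves and 4.13, 1.11 and 0.92 CPM in untreated leaves (log2 change 4.13 ± 0.32, edgeR adjusted p = 3.5e-07). For both genes the Alternaria libraries lay far above the mock libraries, and untreated replicate 1 lay above the other untreated libraries.

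CRK5, CRK19 and CRK20 are, like CRK4, known for cell death when overexpressed. CRK5 (AT4G23130) had 31.7, 34.5 and 35.2 CPM in Alternaria leaves, against 20.8, 19 and 18 CPM in mock leaves and 7.66, 3.8 and 4.18 CPM in untreated leaves, a rise over mock of 0.81 ± 0.17 (edgeR adjusted p = 0.0011). CRK19 (AT4G23270) had 77.6, 94.9 and 102 CPM in Alternaria leaves, against 25.9, 27.5 and 23 CPM in mock leaves and 34.8, 25.6 and 27.5 CPM in untreated leaves, with mock and untreated libraries overlapping (log2 change 1.84 ± 0.13, edgeR adjusted p = 1.4e-07). CRK20 (AT4G23280) had 5.57, 8.26 and 8.69 CPM in Alternaria leaves, against 1.44, 1.08 and 1.28 CPM in mock leaves and 0.511, 0.262 and 0.209 CPM in untreated leaves (log2 change 2.55 ± 0.23, edgeR adjusted p = 1.4e-06). The rises of CRK4, CRK5, CRK19 and CRK20 ran from 1.75-fold for CRK5 to 13.4-fold for CRK4.

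CRK2 (AT1G70520), a kinase known to phosphorylate the NADPH oxidase RBOHD, had 132, 151 and 153 CPM in Alternaria leaves, against 48.1, 50.9 and 46.5 CPM in mock leaves and 32.3, 18.7 and 24.4 CPM in untreated leaves (log2 change 1.58 ± 0.15, edgeR adjusted p = 1.4e-06). Its neighbour CRK3 (AT1G70530) had 68.1, 92.4 and 84.2 CPM in Alternaria leaves, against 20.6, 23.4 and 20.2 CPM in mock leaves and 13.6, 6.72 and 9.04 CPM in untreated leaves (log2 change 1.93 ± 0.18, edgeR adjusted p = 1.8e-06). Both formed 3 steps without overlap, with Alternaria leaves highest and untreated leaves lowest. CRK10 (AT4G23180), in which a gain-of-function allele is known to switch on defence, had 186, 188 and 204 CPM in Alternaria leaves, against 75.2, 76.9 and 70.5 CPM in mock leaves and 69.3, 40.3 and 44.6 CPM in untreated leaves (log2 change 1.38 ± 0.15, edgeR adjusted p = 7.5e-06). CRK28 (AT4G21400), known to associate with the co-receptor BAK1, had 15.4, 15.3 and 18.4 CPM in Alternaria leaves, against 8.34, 7.66 and 7.64 CPM in mock leaves and 9.01, 6.85 and 8.2 CPM in untreated leaves (log2 change 1.05 ± 0.12, edgeR adjusted p = 8.3e-06). CRK36 (AT4G04490), known to associate with the cytoplasmic kinase BIK1, had 69.1, 71.3 and 87.5 CPM in Alternaria leaves, against 11.1, 9.2 and 7.22 CPM in mock leaves and 5.48, 1.74 and 3.35 CPM in untreated leaves (log2 change 3.05 ± 0.24, edgeR adjusted p = 3.9e-07). In each of these the 3 Alternaria libraries lay above all mock libraries.

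CRK11 and CRK13 are known to be tied to salicylic acid, CRK11 as a gene that responds to it and CRK13 as one whose overexpression raises it. CRK11 (AT4G23190) had 38.4, 51.1 and 55.2 CPM in Alternaria leaves, against 11.8, 10.5 and 9.37 CPM in mock leaves and 14.4, 3.93 and 4.9 CPM in untreated leaves (log2 change 2.19 ± 0.33, edgeR adjusted p = 9.0e-05). CRK13 (AT4G23210) had 21.1, 22.1 and 24.2 CPM in Alternaria leaves, against 5.49, 7.35 and 3.15 CPM in mock leaves and 3.16, 1.67 and 1.55 CPM in untreated leaves (log2 change 2.09 ± 0.25, edgeR adjusted p = 1.4e-05). Alternaria libraries of both lay above the other 6 libraries, and untreated replicate 1 of CRK11 lay above all 3 mock libraries.

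**Figure D2:**
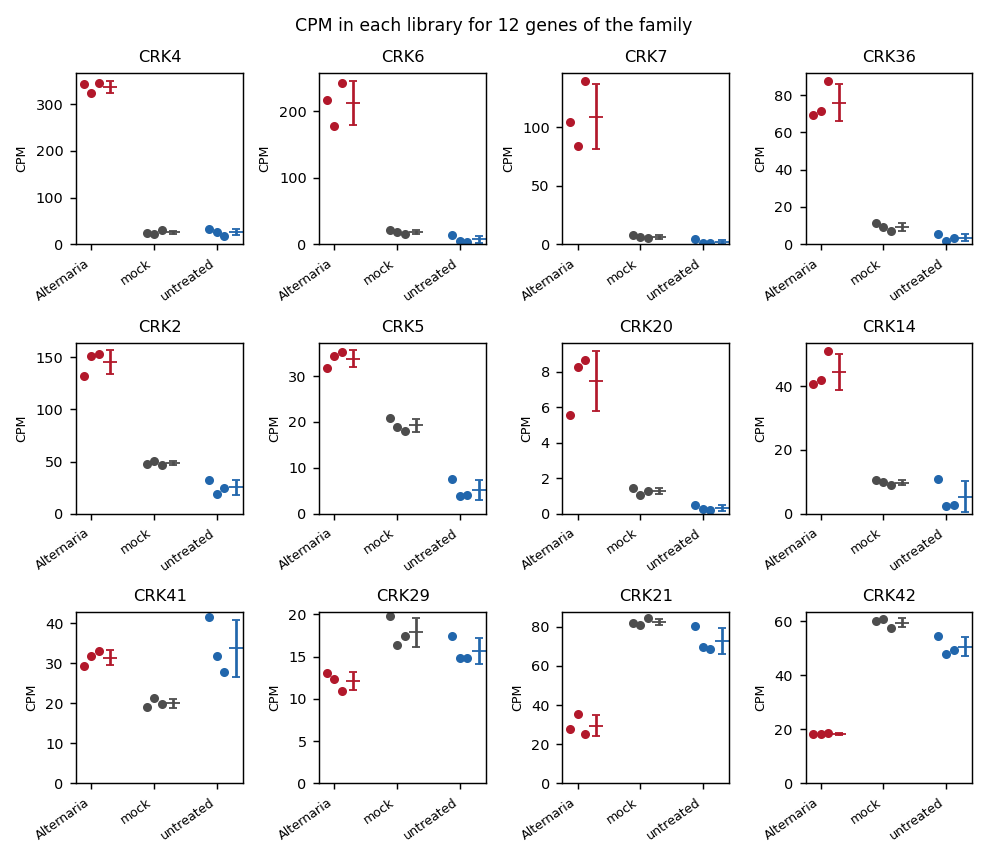
CPM in each library (points, replicates 1 to 3 from left to right) with mean ± SD of 3 libraries (bars) for 12 CRK genes in Alternaria (red), mock (grey) and untreated leaves (blue), each panel on its own linear axis from 0. CRK4 sits at 323 to 346 CPM in Alternaria leaves and at or below 31.6 CPM in the other 6 libraries, while CRK42 sits at 18.1 to 18.7 CPM in Alternaria leaves and at or above 47.8 CPM elsewhere.

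The other members with at least 4-fold rises have fewer described roles. CRK39 (AT4G04540) had the largest log2 rise of the family, with 15, 10.5 and 16.5 CPM in Alternaria leaves, against 0.942, 0.385 and 0.836 CPM in mock leaves and 1.21, 0.786 and 0.628 CPM in untreated leaves (log2 change 4.24 ± 0.27, edgeR adjusted p = 8.6e-08, 18.9-fold). CRK37 (AT4G04500) had 49.5, 42 and 61.8 CPM in Alternaria leaves, against 4.32, 3.95 and 3.51 CPM in mock leaves and 2.6, 0.983 and 0.962 CPM in untreated leaves (log2 change 3.70 ± 0.22, edgeR adjusted p = 5.7e-08). CRK38 (AT4G04510), beside it, had 12.5, 16.1 and 21.8 CPM in Alternaria leaves, against 3.44, 2.97 and 1.48 CPM in mock leaves and 3.02, 0.459 and 0.46 CPM in untreated leaves (log2 change 2.67 ± 0.44, edgeR adjusted p = 2.1e-04). These genes share an array with CRK36 and CRK40, and their Alternaria libraries lay above every other library.

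CRK23 (AT4G23310) had 39.1, 38.5 and 48.3 CPM in Alternaria leaves, against 4.1, 3.92 and 2.96 CPM in mock leaves and 2.93, 1.87 and 0.92 CPM in untreated leaves (log2 change 3.52 ± 0.22, edgeR adjusted p = 6.6e-08). Its convergent neighbour CRK24 (AT4G23320) had 18.7, 22.2 and 23 CPM in Alternaria leaves, against 4.99, 3.81 and 4.88 CPM in mock leaves and 4.41, 1.93 and 1.51 CPM in untreated leaves (log2 change 2.22 ± 0.24, edgeR adjusted p = 6.8e-06). Neither gene's Alternaria libraries came near the mock range. CRK26 (AT4G38830), which stands alone, had 2.02, 2.52 and 4.29 CPM in Alternaria leaves, against 0.36, 0.385 and 0.223 CPM in mock leaves and 0.418, 0.131 and 0.251 CPM in untreated leaves (log2 change 3.18 ± 0.39, edgeR adjusted p = 1.8e-05), a change between low levels in which mock and untreated libraries overlapped. CRK8 and CRK9 follow CRK7 in the array, and the annotated proteins of both lack the kinase signature. CRK8 (AT4G23160) had 6.69, 6.01 and 8.17 CPM in Alternaria leaves, against 0.887, 0.91 and 0.669 CPM in mock leaves and 0.696, 0.426 and 0.209 CPM in untreated leaves (log2 change 3.08 ± 0.25, edgeR adjusted p = 5.5e-07). CRK9 (AT4G23170) had 108, 100 and 136 CPM in Alternaria leaves, against 25.9, 24.2 and 26 CPM in mock leaves and 18.3, 10.1 and 8.95 CPM in untreated leaves (log2 change 2.18 ± 0.20, edgeR adjusted p = 1.3e-06). Per kb of exon CRK9 had the sixth highest level of the family in Alternaria leaves.

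CRK14 (AT4G23220) had 40.6, 41.9 and 51.1 CPM in Alternaria leaves, against 10.5, 9.9 and 8.87 CPM in mock leaves and 10.9, 2.26 and 2.64 CPM in untreated leaves (log2 change 2.19 ± 0.36, edgeR adjusted p = 2.1e-04). CRK15 (AT4G23230), the next gene, had 22.2, 24.5 and 28.8 CPM in Alternaria leaves, against 5.21, 7.14 and 5.21 CPM in mock leaves and 3.53, 1.28 and 1.09 CPM in untreated leaves (log2 change 2.11 ± 0.25, edgeR adjusted p = 1.4e-05). In both, Alternaria libraries lay above the rest, and untreated replicate 1 lay well above the other untreated libraries, for CRK14 above all mock libraries too.

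A further 9 members rose by 0.42 to 1.73 on the log2 scale: CRK12, CRK17, CRK18, CRK22, CRK27, CRK31, CRK32, CRK34 and CRK40. Among them CRK18 (AT4G23260) had 130, 145 and 159 CPM in Alternaria leaves against 45.2, 47.8 and 47.7 CPM in mock leaves (log2 change 1.62 ± 0.10, edgeR adjusted p = 6.2e-08), and CRK22 changed least, 1.34-fold. CRK17 (AT4G23250) averaged 71.9 ± 10.5 CPM in Alternaria leaves against 39.3 ± 3.06 CPM in mock leaves, CRK22 (AT4G23300) 53.8 ± 2.58 and 40.2 ± 1.04 CPM, and CRK12 (AT4G23200) 27.7 ± 3.43 and 15.5 ± 1.39 CPM (SD, n = 3 each). CRK34 (AT4G11530) averaged 8.55 ± 0.469 CPM in Alternaria leaves against 4.36 ± 0.484 CPM in mock leaves. CRK31 (AT4G11470), at 2.4 ± 0.0841 and 0.879 ± 0.203 CPM, CRK32 (AT4G11480), at 1.79 ± 0.382 and 0.541 ± 0.176 CPM, and CRK27 (AT4G21230), at 1.39 ± 0.144 and 0.757 ± 0.15 CPM, averaged under 3 CPM in both groups. For CRK27 the adjusted p by edgeR was 0.0125 with all libraries and 0.0612 without mock replicate 1.

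Among the 4 genes that fell, CRK42 and CRK21 stood among the 5 highest members per kb of exon in mock leaves. CRK42 (AT5G40380), on chromosome 5, had 18.1, 18.2 and 18.7 CPM in Alternaria leaves, against 60.3, 60.7 and 57.7 CPM in mock leaves and 54.6, 47.8 and 49.3 CPM in untreated leaves (log2 change -1.70 ± 0.07, edgeR adjusted p = 6.9e-09, 0.308-fold). CRK21 (AT4G23290), inside the array where most genes rose, had 27.7, 35.5 and 25 CPM in Alternaria leaves, against 82.2, 81.1 and 84.4 CPM in mock leaves and 80.6, 69.6 and 68.4 CPM in untreated leaves (log2 change -1.49 ± 0.11, edgeR adjusted p = 3.3e-07). The Alternaria libraries of both lay below the other 6 libraries with a wide gap. CRK29 (AT4G21410) had 13.1, 12.3 and 10.9 CPM in Alternaria leaves, against 19.8, 16.4 and 17.4 CPM in mock leaves and 17.4, 14.8 and 14.8 CPM in untreated leaves (log2 change -0.56 ± 0.11, edgeR adjusted p = 6.3e-04). CRK30 (AT4G11460) had 2.22, 1.44 and 1.25 CPM in Alternaria leaves, against 3.55, 3.6 and 2.7 CPM in mock leaves and 2.04, 1.9 and 2.55 CPM in untreated leaves (log2 change -0.99 ± 0.24, edgeR adjusted p = 0.00312), and its Alternaria replicate 1 overlapped the untreated libraries.

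CRK1, CRK16 and CRK33 did not pass the test. CRK16 (AT4G23240) averaged 3.12 ± 0.136 CPM in Alternaria leaves and 3.21 ± 0.0237 CPM in mock leaves (log2 change -0.04 ± 0.20, edgeR adjusted p = 0.877). CRK1 (AT1G19090) averaged 0.389 ± 0.225 CPM in Alternaria leaves and 0.806 ± 0.0533 CPM in mock leaves, with Alternaria libraries below mock libraries (log2 change -1.01 ± 0.46, edgeR adjusted p = 0.0802). It was called lower with upper-quartile scaling (-1.19, edgeR adjusted p = 0.0434), with a fit to the 6 libraries (-1.03, 0.0489) and without Alternaria replicate 1 (-1.54, 0.0306). CRK33 (AT4G11490) stayed under 1 CPM in every library, with overlapping groups. CRK25 (AT4G05200) was too low to be tested, with 9, 6 and 6 reads in Alternaria libraries, 5, 2 and 11 reads in mock libraries and 5, 3 and 5 reads in untreated libraries.

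Change followed the tandem blocks only in part. The 20 genes from CRK5 to CRK24 lie on chromosome 4 between 12117491 and 12191704 (TAIR10.1), 9 on the plus strand and 11 on the minus strand. In this array 18 of 20 rose in Alternaria leaves over mock leaves, 1 fell, and the median log2 change was 2.10. Over all tested genes 29.5% rose and 26.1% fell, with a median of -0.02, and the same shares apply to each block below. The 5 genes from CRK36 to CRK40 (chromosome 4, 2231717 to 2292965) all rose, with a median of 3.05. Of the 5 genes from CRK30 to CRK34 (chromosome 4, 6963521 to 6989793) 3 rose and 1 fell, with a median of 0.97. CRK2 and CRK3 on chromosome 1 both rose, and of the overlapping pair CRK28 and CRK29 1 rose and 1 fell. Of the 6 tested genes that stand alone 4 rose and 1 fell, with changes from -1.70 for CRK42 to 3.75 for CRK4.

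**Figure D3:**
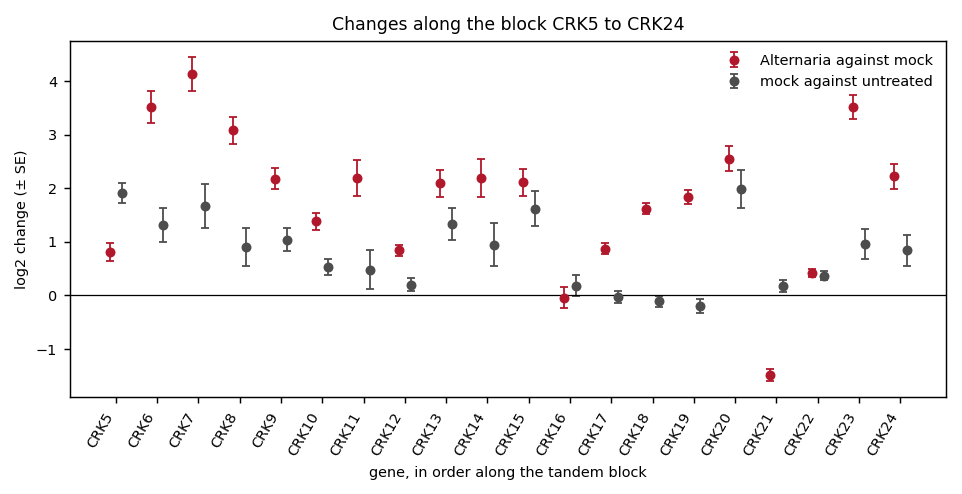
Log2 change ± SE of each of the 20 genes in the CRK5 to CRK24 array, in order along the chromosome, for Alternaria against mock (red) and mock against untreated (grey). The red points peak at CRK7 (4.13) and CRK23 (3.52), and CRK21 (-1.49) lies below 0 between CRK20 (2.55) and CRK22 (0.42).

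Neighbouring CRK genes usually changed by different amounts. For each pair of neighbours the left gene's log2 CPM minus the right gene's was tested in the same libraries with limma, over all 21096 pairs of adjacent tested nuclear genes. Of 27 CRK pairs, 24 (88.9%) differed in their change between Alternaria and mock leaves, where 54.3% of all pairs did. A difference of at least 2-fold was called for 14 CRK pairs (51.9%), against 29.6% of all pairs. Consecutive CRK pairs share a gene and are not independent of each other. A pair is adjacent among tested genes by locus number and can lie far apart, as CRK38 and CRK39 do (14567 bp). Leaving out 1 library at a time gave 19 to 24 pairs.

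CRK20 and CRK21, whose ends face each other 157 bp apart, differed most. CRK20 rose by 2.55 and CRK21 fell by 1.49 on the log2 scale, a difference of 3.99 ± 0.26 (limma adjusted p = 1.5e-07). CRK21 and CRK22, which are read away from each other with 688 bp between them, differed by -1.92 ± 0.11 (limma adjusted p = 6.7e-08). CRK22 and CRK23 differed by -3.08 ± 0.28 and CRK5 and CRK6 by -2.70 ± 0.20 (limma adjusted p = 1.9e-06 and 4.2e-07).

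Close relatives also parted. CRK39 and CRK40 lie 26295 bp apart, with no tested gene between them by locus number, and are 79.8% identical in protein sequence. Yet CRK39 rose 18.9-fold, to 5.62 CPM per kb of exon in Alternaria leaves, and CRK40 rose 1.58-fold, to 74.2 CPM per kb. Their changes differed by a log2 value of 3.57 ± 0.26 (limma adjusted p = 3.7e-07). CRK40 (AT4G04570) had 265, 199 and 225 CPM in Alternaria leaves, against 149, 144 and 143 CPM in mock leaves and 186, 170 and 151 CPM in untreated leaves. CRK28 and CRK29, 81.4% identical, moved in opposite directions and differed by 1.60 ± 0.17 (limma adjusted p = 7.7e-06). CRK19 and CRK20 were the most alike of the pairs with whole alignments, 84.9% identical, and differed by -0.65 ± 0.24 (limma adjusted p = 0.0333). CRK30 fell and CRK31 beside it rose, a difference of -2.41 ± 0.42 (limma adjusted p = 3.4e-04).

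For 3 pairs no difference passed the test: CRK31 and CRK32 (-0.23 ± 0.51, limma adjusted p = 0.735), CRK14 and CRK15 (0.08 ± 0.23, 0.797), and CRK18 and CRK19 (-0.22 ± 0.10, 0.0878). A p above the threshold does not show that both genes of a pair changed alike. CRK33 and CRK34, and CRK13 and CRK14, were not tested as pairs because another tested gene lies between them.

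**Figure D4:**
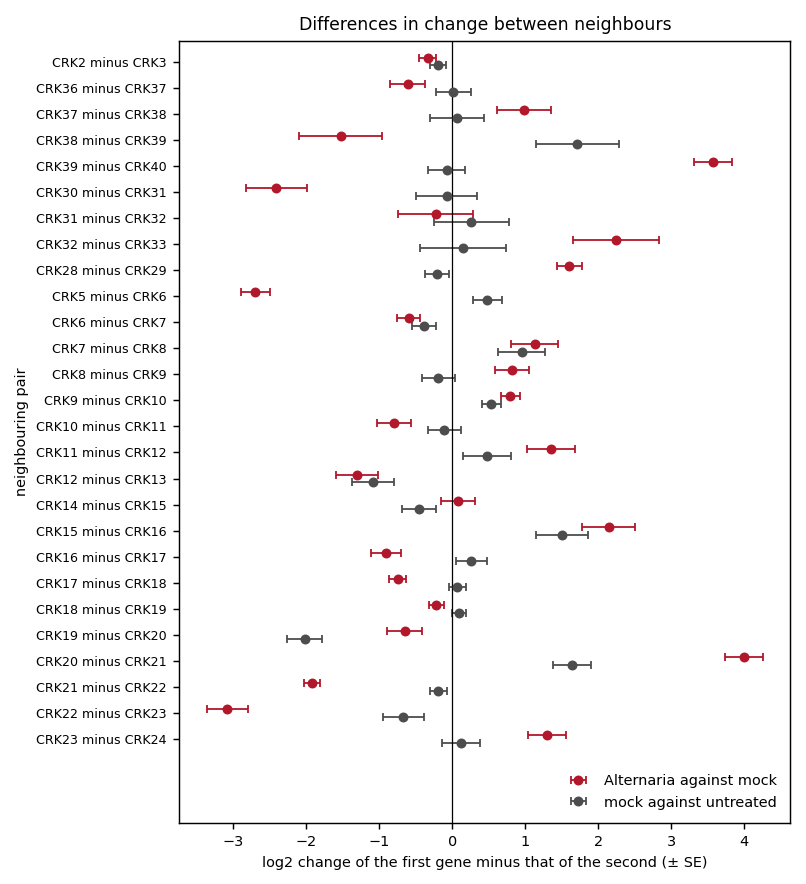
Log2 change of the first gene minus that of the second (± SE) for the 27 neighbouring CRK pairs, for Alternaria against mock (red) and mock against untreated (grey), with 0 meaning equal change. The red points spread from -3.08 (CRK22 minus CRK23) to 3.99 (CRK20 minus CRK21), and the grey points from -2.02 (CRK19 minus CRK20) to 1.71 (CRK38 minus CRK39).

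Mock leaves already differed from untreated leaves in many CRK genes. Of 40 tested, 17 were higher and 1 was lower in mock leaves, where the comparison called 29.3% of all tested genes, 15.1% higher and 14.1% lower. Rises of at least 2-fold were called for 10 members, against 2.33% of all genes. The median log2 change was 0.57 over the members and -0.01 over all genes.

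CRK20 (1.99 ± 0.35) and CRK5 (1.91 ± 0.19) changed most between mock and untreated leaves (edgeR adjusted p = 0.00125 and 2.6e-05). CRK20 lay near the floor, with 11, 8 and 5 reads in untreated and 52, 31 and 46 reads in mock replicates 1, 2 and 3. The authors' deposited tables give CRK20 a log2 change of 1.26 here and no adjusted p. CRK5 lay at 20.8, 19 and 18 CPM in mock leaves against 7.66, 3.8 and 4.18 CPM in untreated leaves, so its change was 3.76-fold here and 1.75-fold between Alternaria and mock leaves. The other 8 were CRK7 (1.67), CRK15 (1.62), CRK36 (1.44), CRK37 (1.43), CRK13 (1.34), CRK6 (1.31), CRK3 (1.14) and CRK9 (1.04), with adjusted p by edgeR from 0.0012 to 0.0097. CRK7 missed the threshold without untreated replicate 2 (edgeR adjusted p = 0.0539). The authors' deposited tables did not call CRK7 (0.74, DESeq2 adjusted p = 0.0645) or CRK6 (0.76, 0.0547) here. They called the other members of this list, with smaller log2 changes. CRK15 (0.93), CRK36 (0.9) and CRK9 (0.84) were under 2-fold there, and CRK37 (1.13), CRK13 (1.1) and CRK3 (1.06) were above it.

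The 7 smaller rises were CRK2 (0.96), CRK23 (0.96), CRK24 (0.84), CRK34 (0.75), CRK10 (0.53), CRK22 (0.37) and CRK42 (0.24). Calls for CRK10, CRK23, CRK24 and CRK42 were lost when any of several single libraries was left out, with edgeR adjusted p of 0.0509 to 0.173 there. The call of CRK24 was also lost by DESeq2 (adjusted p = 0.0987). Calls for CRK22 and CRK34 were not followed under other settings in this comparison. CRK41 (AT4G00970) was the 1 member that was lower in mock leaves (log2 change -0.75 ± 0.12, edgeR adjusted p = 8.6e-04). It had 29.4, 31.7 and 33 CPM in Alternaria leaves, against 19, 21.2 and 19.7 CPM in mock leaves and 41.6, 31.9 and 27.8 CPM in untreated leaves, so mock leaves lay below both other groups and Alternaria libraries lay inside the untreated range. Alternaria against mock gave 0.65 ± 0.12 for it (edgeR adjusted p = 6.0e-04). CRK4, by contrast, gave -0.02 ± 0.16 between mock and untreated leaves (edgeR adjusted p = 0.928).

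Between mock and untreated leaves 7 of 27 CRK pairs (25.9%) differed in their change, where 26.7% of all pairs did, and 5 differed by at least 2-fold (18.5%, against 9.84% of all pairs). The number was 11 without untreated replicate 1, 4 without untreated replicate 2 and 4 without mock replicate 2. CRK19 and CRK20 parted most, by -2.02 ± 0.24 (limma adjusted p = 1.1e-04), since CRK20 rose and CRK19 gave -0.20 ± 0.13. This difference rests on the few untreated reads of CRK20 given above.

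Untreated replicate 1 stood apart for this family. It held the highest of the 3 untreated values for 33 of 40 tested members (82.5%), against 40.8% of all tested genes, and at least 2-fold more than both others for 8 (20%), against 1.21% of all tested genes. Some genes outside the family also stood highest there, among them ARCK1 (CRK45), with 12.4, 2.33 and 3.26 CPM in untreated replicates 1, 2 and 3. CRK38 had 3.02, 0.459 and 0.46 CPM and CRK14 10.9, 2.26 and 2.64 CPM in untreated replicates 1, 2 and 3. Without this library 21 members were higher in mock than in untreated leaves, and CRK14 (2.01, edgeR adjusted p = 3.9e-06), CRK11 (1.27, 3.5e-04), CRK38 (2.51, 0.00185) and CRK8 (1.31, 0.0181) were among them. The rises of CRK7 (2.60), CRK15 (2.29) and CRK6 (1.98) in mock leaves were then 1.91, 1.59 and 1.59 times as large in fold. Alternaria against mock gave 33 members higher and 4 lower without it. That comparison does not contain this library, which enters it only through the shared filter, scaling and estimate of spread.

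Alternaria leaves against untreated leaves gave 32 members higher and 3 lower, where 64.9% of all genes were called, 33.1% higher and 31.8% lower. Rises of at least 4-fold were called for 22 members, against 6.04% of all genes, and the median log2 change was 2.33. CRK7 (5.80 ± 0.38, 55.7-fold) and CRK37 (5.13 ± 0.26) differed most (edgeR adjusted p = 4.6e-08 and 7.4e-09). Without untreated replicate 1 the log2 change of CRK7 was 6.73, that of CRK6 5.5 against 4.83 with it, and that of CRK38 5.18 against 3.77, and those of CRK11, CRK14 and CRK15 also grew, by 1.59 to 2.08 times in fold. CRK42 (-1.46), CRK21 (-1.31) and CRK29 (-0.37) were lower, and the call of CRK29 was lost without Alternaria replicate 3 (-0.29, edgeR adjusted p = 0.0511). CRK41 gave -0.10 ± 0.12 here (edgeR adjusted p = 0.466), and it was called lower with upper-quartile scaling (-0.30, 0.0301). This comparison shares its libraries with both others and adds no independent evidence.

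The order of the family's levels differed between the groups. Per kb of exon, CRK4 stood first in Alternaria leaves at 132 ± 4.80 CPM per kb, followed by CRK6 at 82.0 ± 12.6, CRK10 at 75.8 ± 3.92 and CRK40 at 74.2 ± 10.8 (mean ± SD, n = 3), and the last 3 of these overlapped within their SD. In mock leaves CRK40 stood first at 47.0 ± 1.12, then CRK21 at 34.8 ± 0.719 and CRK10 at 29.2 ± 1.30, and CRK4 was the tenth at 9.79 ± 1.43. Untreated leaves had CRK40 (54.6), CRK21 (30.7), CRK18 (22.9), CRK10 (20.2) and CRK42 (17.7 CPM per kb) at the top. In Alternaria leaves 8 members reached a mean of 100 CPM, against 1 in mock and 1 in untreated leaves, and 9, 17 and 21 members stayed under 5 CPM. CRK4 alone held 14.3% of the family's CPM in Alternaria leaves and 3.09% in mock leaves.

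**Figure D5:**
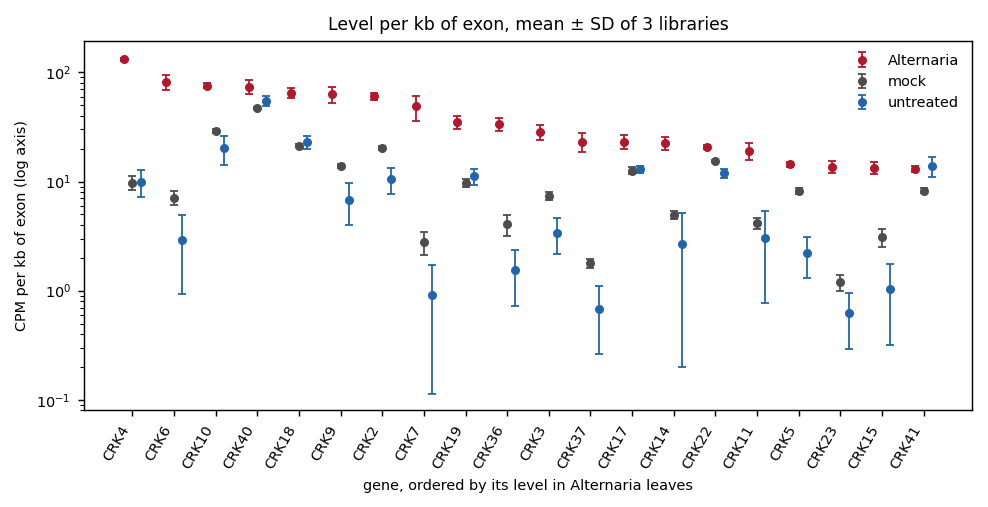
Mean ± SD (3 libraries) of CPM per kb of exon, on a log axis, for the 20 CRK genes with the highest level in Alternaria leaves (red), beside mock (grey) and untreated leaves (blue). CRK4 stands first at 132 in Alternaria leaves and at 9.79 in mock leaves, while CRK40 stays high in all groups.

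The stretch before each gene was read from the RefSeq TAIR10.1 genome, 250 bases upstream of the annotated gene start. It was searched on both strands for TTGAC, the core of the W-box that WRKY transcription factors bind, and for the longer TTGACC or TTGACT, which contain that core. The core occurred in 30 of 41 CRK windows (73.2%) and in 44.9% of 27443 windows of nuclear protein-coding genes, and at least 2 cores in 41.5% and 14.1%. The longer box occurred in 63.4% of CRK windows and 28.4% of all windows. Of the 17 members with at least 4-fold rises over mock 16 held a core, and CRK13 did not. Of the 16 with smaller called rises 9 did, of the 4 that fell 2 did, and of the 3 that did not pass the test 2 did, CRK16 with 3 cores. The windows of CRK16 and CRK28 lie inside the gene models of CRK17 and CRK29, and that of CRK15 runs into the model of CRK16. The annotated exons of CRK14, CRK15 and CRK33 are no longer than their coding sequences. Windows of these genes therefore end at the start codon and may include transcribed bases.

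The windows of the largest rises (CRK39 and CRK7), of the member with most cores (CRK11) and of the deepest falls (CRK42 and CRK21) are shown 5′ to 3′ on the gene's strand, with cores in capitals, which appear as GTCAA where they lie on the other strand.
CRK39 (chr4:2259248-2259497, plus strand): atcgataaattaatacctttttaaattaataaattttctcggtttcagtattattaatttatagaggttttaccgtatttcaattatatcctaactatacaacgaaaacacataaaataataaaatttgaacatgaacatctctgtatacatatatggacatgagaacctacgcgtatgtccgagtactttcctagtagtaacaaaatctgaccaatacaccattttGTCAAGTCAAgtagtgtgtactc
CRK7 (chr4:12125414-12125663, plus strand): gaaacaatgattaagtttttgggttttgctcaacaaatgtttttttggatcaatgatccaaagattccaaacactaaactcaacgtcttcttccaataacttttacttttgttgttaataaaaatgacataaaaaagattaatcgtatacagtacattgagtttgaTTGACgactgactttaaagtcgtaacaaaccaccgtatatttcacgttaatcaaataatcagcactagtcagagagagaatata
CRK11 (chr4:12143859-12144108, minus strand): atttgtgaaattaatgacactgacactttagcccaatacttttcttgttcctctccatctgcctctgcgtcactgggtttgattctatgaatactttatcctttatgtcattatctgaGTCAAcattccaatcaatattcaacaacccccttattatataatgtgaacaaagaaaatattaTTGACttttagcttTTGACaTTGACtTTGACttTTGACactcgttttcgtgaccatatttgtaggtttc
CRK42 (chr5:16151272-16151521, plus strand): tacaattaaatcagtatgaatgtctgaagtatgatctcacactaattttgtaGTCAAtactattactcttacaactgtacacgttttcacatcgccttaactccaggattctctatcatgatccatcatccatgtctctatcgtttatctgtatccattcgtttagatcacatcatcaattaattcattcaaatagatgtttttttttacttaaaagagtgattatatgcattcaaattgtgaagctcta
CRK21 (chr4:12180937-12181186, minus strand): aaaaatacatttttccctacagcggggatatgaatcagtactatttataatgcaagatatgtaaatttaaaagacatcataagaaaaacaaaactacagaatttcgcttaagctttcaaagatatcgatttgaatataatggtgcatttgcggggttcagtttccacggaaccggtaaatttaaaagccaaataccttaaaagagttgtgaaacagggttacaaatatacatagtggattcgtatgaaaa
CRK11 held 6 cores, 5 of them close together on the side nearer the gene. CRK39 held 2 side by side, CRK7 and CRK42 held 1 each, and CRK21 held none. A match of letters is a description and does not show binding.

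Genes that work beside CRKs were examined as lists. Of 10 immune partners and oxidases 9 rose in Alternaria over mock leaves, where 29.5% of all tested genes did, and FLS2 did not pass, with a median log2 change of 1.17. BIK1, the cytoplasmic kinase below immune receptors, had 24.1, 30.2 and 31.8 CPM in Alternaria leaves, against 7.37, 6.65 and 6.36 CPM in mock leaves and 9.47, 7.21 and 6.82 CPM in untreated leaves (log2 change 2.08 ± 0.14, edgeR adjusted p = 1.1e-07). SERK4 (BKK1), a co-receptor close to BAK1, gave 1.98 ± 0.13, and the elongation factor receptor EFR 1.67 ± 0.17. RBOHD, the oxidase of the immune oxygen burst, had 153, 167 and 191 CPM in Alternaria leaves against 72.8, 79.6 and 75.9 CPM in mock leaves (log2 change 1.16 ± 0.11, edgeR adjusted p = 1.5e-06). For the flagellin receptor FLS2 the change was small (-0.23 ± 0.17, edgeR adjusted p = 0.285). Between mock and untreated leaves 2 of the 10 were higher, FLS2 and CERK1, the chitin co-receptor, and 2 lower, RBOHF and CPK28, shares near the 15.1% and 14.1% of all tested genes.

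CRK-numbered kinases outside the 41, which were not checked for DUF26 patterns, and other proteins with DUF26 domains were counted in the same way. All 3 tested CRK-numbered kinases outside the 41 rose over mock, led by ARCK1 (CRK45), a cytosolic partner of CRK36 in abscisic acid responses, with 99.3, 92.4 and 114 CPM in Alternaria leaves, against 21.9, 18.5 and 12.9 CPM in mock leaves and 12.4, 2.33 and 3.26 CPM in untreated leaves (log2 change 2.52 ± 0.38, edgeR adjusted p = 9.0e-05). Of 7 tested plasmodesmata-located proteins, which have DUF26 domains but no kinase, 2 rose and 4 fell, where 29.5% and 26.1% of all tested genes did, so the share that rose was near that of all genes. PDLP5 (HWI1), which is known to close plasmodesmata, had 25.7, 28.4 and 35.6 CPM in Alternaria leaves, against 3.52, 4.48 and 3.79 CPM in mock leaves and 3.2, 3.8 and 4.43 CPM in untreated leaves (log2 change 2.93 ± 0.15, edgeR adjusted p = 2.1e-08). PDLP2 (-1.31), PDLP3 (-1.22), PDLP7 (-0.86) and PDLP6 (-0.67) fell, and PDLP8 rose (0.83). Of 30 secreted DUF26 proteins listed, 2 were tested and both rose, AT5G48540 (2.12 ± 0.19) and AT3G22060 (1.41 ± 0.22). These 2 had been put on the list by name. All the others were listed by their annotated description and were too low to be tested. The 2 rises therefore do not describe the secreted proteins as a group.

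Markers of leaf cell types moved with the groups too. The 4 mesophyll markers summed to 18300 to 19100 CPM in Alternaria, 30600 to 32500 CPM in mock and 35500 to 37100 CPM in untreated libraries, and all 4 fell in Alternaria against mock. Epidermis and trichome markers summed to 158 to 172, 271 to 293 and 350 to 435 CPM (2 of 3 fell), guard cell markers to 41.9 to 52.0, 38.2 to 42.3 and 43.1 to 50.8 CPM (1 of 4 rose, 1 fell), and vascular markers to 212 to 230, 154 to 174 and 206 to 240 CPM (2 of 3 rose, 1 fell), each in the same order of groups. Dividing-cell markers summed to 6.92 to 8.24, 8.45 to 9.48 and 15 to 18.7 CPM, and neither was called between Alternaria and mock leaves (edgeR adjusted p = 0.779 for CYCB1;1 and 0.161 for SYP111). Both were lower in mock than in untreated leaves (edgeR adjusted p = 0.00782 for CYCB1;1 and 2.6e-04 for SYP111). Root markers summed to 196 to 217, 143 to 163 and 153 to 241 CPM, with 1 of 4 called between Alternaria and mock leaves, the phosphate transporter gene PHT1;4, which rose. SCR, of the same list, averaged 44.1 ± 3.64 CPM in mock and 99.9 ± 9.99 CPM in untreated leaves (log2 change -1.18, edgeR adjusted p = 3.5e-06). Of the other markers, 2 of 4 in mesophyll, 2 of 3 in epidermis and trichomes and 2 of 3 in the vasculature were lower in mock than in untreated leaves, and no guard cell marker was called. Of 4 flower and seed markers, AG averaged 1.8 CPM in Alternaria, 3.13 CPM in mock and 1.98 CPM in untreated leaves, lower in Alternaria than in mock leaves (log2 change -0.79, edgeR adjusted p = 0.0104) and higher in mock than in untreated leaves (0.66, 0.0493). The other 3, AP3, CRA1 and OLEO1 stayed at or below 0.325 CPM in every library. The part of these shifts in the CRK changes was not tested.

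Near-identical coding stretches and overlapping gene models limit some single values, because the counting rule for shared reads is not given in the sources used here. Runs of at least 100 identical coding bases were shared by 9 members: CRK6 with CRK8 (368 bp), CRK16 with CRK17 (339 bp), CRK13 with CRK22 (309 bp), CRK39 with CRK40 (182 bp) and CRK17 with CRK18 (128 bp). The models of 9 members overlap another gene. Between CRK genes, CRK16 overlaps CRK17 and CRK28 overlaps CRK29 on the same strand, and CRK10 overlaps CRK11 on opposite strands. With genes outside the family, CRK29 overlaps AT4G03065 on the same strand. CRK19, CRK25 and CRK42 overlap AT4G23271, AT4G05190 and AT5G40382, each on opposite strands. The split of reads within all these overlaps is uncertain. The authors' deposited tables called CRK genes too, 33 of them higher and 4 lower in Alternaria than in mock leaves, 13 higher and 1 lower in mock than in untreated leaves. Of the calls given here, 37 of 37 for Alternaria against mock and 14 of 18 for mock against untreated were called in the same direction in the authors' deposited tables. The calls missing there for mock against untreated were those of CRK6, CRK7, CRK10 and CRK20.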

How the data were processed

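Messenger RNA of Arabidopsis thaliana Col-0 rosette leaves was measured in 9 libraries, 3 each of Alternaria, mock and untreated leaves, grouped by their labels. Per the labels' protocols, poly(A) RNA from 3 µg of total RNA entered ScriptSeq v2 libraries with a size range of 250 to 650 bp. Per the submitters' processing notes, the tools were FastQC, TopHat2 2.0.12, HTSeq and DESeq2 1.8.2, with build TAIR10. No source used here gives the strand setting, so sense and antisense reads may not be separated.

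The deposited count files give whole reads for each gene, unnormalised, and lines that name no gene (7.73 to 11.2% of a library) were dropped. The authors' deposited comparisons hold log2 fold changes and, per the file headers, p-values of DESeq2, whose sign was checked against the counts.

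Genes kept by filterByExpr (minimum count 10) were scaled by TMM and tested by quasi-likelihood in edgeR 4.0.16 (R 4.3.3), in 1 model of 9 libraries with a mean for each group, which leaves 6 residual degrees of freedom (biological coefficient of variation 0.107). Calls are Benjamini-Hochberg adjusted p under 0.05 over 22019 genes. An SE is the size of the log2 change over the square root of its F. Neighbour pairs were tested with limma 3.58.1 on log2 CPM (prior count 2). RefSeq TAIR10.1 gave names, positions, exon lengths, protein checks (Biopython 1.88) and upstream bases. A count of 0 allows up to 3 reads, 0.0832 to 0.132 CPM before TMM scaling, for counting error only. The procedures were tested on simulated counts.

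The rule for the members uses no expression value, but the members, lists and tests were chosen with earlier results of these data known. Values in every library are given for members with at least 4-fold called rises over mock, members called lower anywhere, called rises of at least 2-fold in mock leaves, the untested member, and members with a described role. Alternatives were RLE or upper-quartile scaling, looser and stricter filters, limma-voom, DESeq2 1.42.0, fits to the 6 libraries compared, a replicate block, removal of organelle genes, and removal of each library in turn. Tables and figures used pandas 2.3.3 and matplotlib 3.10.9.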

Additional observations from a re-analysis of the deposited data

How the results depend on the processing

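The number of CRK genes higher in Alternaria than in mock leaves was 33 under 9 alternatives of scaling, filter, tool or design. It was 32 to 33 when 1 library was left out, and the number lower was 4 to 5. Leaving out a library of the group outside a comparison acts on it only through the shared filter, scaling and estimate of spread. The CRK genes higher in mock than in untreated leaves numbered 16 to 18 under those 9 alternatives and 12 to 21 with 1 library left out, against 17 as reported. Between Alternaria and untreated leaves 32 were higher throughout and 2 to 4 lower. Neighbouring CRK pairs that differed in change numbered 22 to 23 under the 4 alternatives for Alternaria against mock (19 to 24 with 1 library left out). For mock against untreated they numbered 5 to 7 (4 to 11 with 1 library left out). Upper-quartile scaling put the median log2 change of all genes at -0.20, against -0.02 with TMM, so each change it gives is shifted by that much.

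Single members were followed under the alternatives for 40 genes in Alternaria against mock and for 28 genes in each other comparison. Among these, the signs that turned belonged to changes that had not passed the test. For mock against untreated, CRK4 (-0.02) became 0.01 without a filter, 0 by DESeq2 and 0.01 by limma-voom, and CRK28 (-0.02) became 0.01 under each of these. With 1 library left out CRK4 ran from -0.22 to 0.15, CRK28 from -0.12 to 0.08, CRK39 from -0.44 to 0.06 and CRK26 from -0.05 to 0.78. CRK41 ran from -0.22 to 0.08 for Alternaria against untreated. The cause was not tested.

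Same-numbered libraries did not deviate together (correlations of -0.07 to 0.03), so the numbers were not taken as pairs. With a replicate block 33 CRK genes were higher and 4 lower in Alternaria than in mock leaves, 16 higher and 1 lower in mock than in untreated leaves, 32 higher and 3 lower in Alternaria than in untreated leaves, and 23 and 6 neighbour pairs differed. CRK24 was then no longer called in mock leaves (0.85, edgeR adjusted p = 0.0564).

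At these depths members under 1 CPM, such as CRK33 and CRK25, give little precision.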
